A study of Mus musculus with 4 samples.

Results

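The adult globins were read in all 4 libraries of skeletal progenitors sorted from newborn mouse limbs, although the sort had excluded cells carrying the erythroid marker Ter119. Described here are 8 genes of 55487 in the table, chosen by name: the adult beta-globins Hbb-bs and Hbb-bt, the adult alpha-globins Hba-a1 and Hba-a2, the embryonic globins Hbb-y and Hba-x, and the erythroid genes Alas2 and Slc4a1. All 8 have a row, 6 of them passed the filter on low counts, and Hbb-y and Hba-x did not.

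The study deleted Ecsit, which encodes a protein of mitochondrial complex I assembly, in the limb mesenchyme with Prx1-cre. Live GFP+ cells lacking CD45, Tie2 and Ter119 were sorted from P1 hindlimbs of mice on a C57BL/6J background, where GFP comes from the Rosa26 mTmG reporter after Cre has acted, so that it marks every descendant of a Prx1-cre cell and not one cell type. Polyadenylated RNA was sequenced without culture or treatment in 2 libraries labelled WT (WT 2 and WT 3) and 2 labelled cKO (cKO 2 and cKO 3), and whether a library came from 1 animal or a pool was not stated. The methods of the study give the sorted genotypes as Ecsit+/+ and Ecsit fl/fl, both with Prx1-Cre and Rosa mT/mG. In GEO, however, EcsitPrx1;Rosa26mTmG is entered as genotype of the libraries titled WT and Ecsitfl/fl;Rosa26mTmG as that of the libraries titled cKO. Ecsit itself was read at 12.6 CPM (counts scaled to a common library size, here with edgeR's TMM factors) in WT 2, 18.9 in WT 3, 33.6 in cKO 2 and 30.2 in cKO 3. The targeted gene was therefore higher in the libraries labelled cKO (log2 fold change 1.02, edgeR adjusted p = 0.0245), which goes against the titles. Counts per gene do not show which exons were read, so they cannot show whether the floxed part was present. Titles are followed here, and each direction below is reversed if the labels were exchanged.

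The libraries held 18266573 (WT 2), 18489694 (WT 3), 20152872 (cKO 2) and 19271414 (cKO 3) counts, with 23362 to 26275 genes detected. Fold changes ran with gene length. In the 10% of genes with the shortest exons (204 to 1828 bases) the median log2 fold change, cKO minus WT, was 0.73, and in the 10% with the longest it was -0.76. Ecsit, with 2490 exon bases, falls in the group of 1829 to 2543 bases. The median of that group was 0.44, and 26.3% of its genes were called higher. In the shortest group the median difference of WT 3 minus WT 2, which share a label, was already 0.56, while that of cKO 3 minus cKO 2 was -0.02. Xist, which is transcribed from an inactive X chromosome, had 22466 counts in WT 2 and 3354 in cKO 3 but 9 in WT 3 and 4 in cKO 2. The Y-linked Ddx3y had 1548 counts in WT 3 and 961 in cKO 2 but 3 in WT 2 and 0 in cKO 3. The libraries of each label thus came from different animals, 1 with the female and 1 with the male pattern, and the spread within a label includes this difference. Sex was no term of the fits, and leaving out 1 library leaves its label with 1 sex.

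Haemoglobin is a tetramer of alpha-like and beta-like globin chains, each holding a haem group. In the mouse the beta-like genes lie together on chromosome 7 and the alpha-like genes on chromosome 11, in the order of their use in development: Hbb-y and Hba-x serve the primitive red cells of the yolk sac, and the adult genes serve the definitive red cells of fetal liver and bone marrow. Mature red cells have no nucleus, but the youngest of them, the reticulocytes, circulate with a large store of globin mRNA. Alas2 is the first enzyme of haem synthesis in red cell precursors, and Slc4a1 (band 3) is their chloride-bicarbonate exchanger and main membrane protein.

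The adult genes come in pairs of near-identical copies, which limits how fragments can be assigned to them. On GRCm38 the beta copies are Hbb-bs at chr7:103826534-103828096 and Hbb-bt at chr7:103812524-103813996, both on the minus strand. The alpha copies are Hba-a1 at chr11:32283511-32284465 and Hba-a2 at chr11:32296489-32297298, both on the plus strand. The coding sequences of Hbb-bs and Hbb-bt, of 444 bases each, differed at 1 position (C417T from Hbb-bs to Hbb-bt, counted from the A of the start codon). Those of Hba-a1 and Hba-a2, of 429 bases each, also differed at 1 position (C381T from Hba-a1 to Hba-a2). The windows around the differing base in exon 3, which is the capital letter, are shown because these are the coding bases by which a fragment can tell the copies apart:
Hbb-bs, chr7:103826665-103826722, minus strand: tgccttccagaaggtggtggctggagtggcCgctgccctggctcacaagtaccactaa
Hbb-bt, chr7:103812656-103812713, minus strand: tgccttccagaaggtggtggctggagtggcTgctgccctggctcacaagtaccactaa
Hba-a1, chr11:32284313-32284372, plus strand: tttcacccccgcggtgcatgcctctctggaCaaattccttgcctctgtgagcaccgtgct
Hba-a2, chr11:32297130-32297189, plus strand: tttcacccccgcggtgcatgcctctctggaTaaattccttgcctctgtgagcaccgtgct

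Outside the coding sequence the transcripts diverge, and the longest stretch shared without a difference was 430 bases between Hbb-bs and Hbb-bt and 415 bases between Hba-a1 and Hba-a2. A fragment that lies wholly within such a stretch cannot be placed, so the split within each pair is uncertain. The sum of a pair does not depend on the split. If such fragments were discarded, however, the sum is too low by an unknown amount, which can differ between the alpha and beta pairs. The embryonic genes are readily told apart, since the coding sequence of Hbb-y had 74.3% identity to Hbb-bs, with no shared run over 22 bases, and that of Hba-x had 64.1% identity to Hba-a1, with no shared run over 18 bases.

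The promoters of 7 of the 8 genes were matched in the RefSeq table on GRCm38.p6, that of Slc4a1 not being among them. Shown are the 120 bases before the RefSeq start of the highest adult gene of each family, of the embryonic gene with more counts, and of Alas2, because these genes are compared below. The GENCODE annotation begins all 4 of these genes further upstream. Capitals mark CACCC (the core of the box bound by Klf1), CCAAT (bound by NF-Y), TATAA and GATA words (bound by Gata1; GATA with A or T before it and A or G after it), on either strand:
Hbb-bs, chr7:103827929-103828048, minus strand: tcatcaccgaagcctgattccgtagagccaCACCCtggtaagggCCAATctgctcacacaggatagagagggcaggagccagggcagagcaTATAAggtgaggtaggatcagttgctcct
Hba-a1, chr11:32283552-32283671, plus strand: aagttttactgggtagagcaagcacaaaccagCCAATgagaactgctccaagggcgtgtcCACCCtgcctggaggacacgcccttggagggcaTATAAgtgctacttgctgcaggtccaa
Hba-x, chr11:32276480-32276599, plus strand: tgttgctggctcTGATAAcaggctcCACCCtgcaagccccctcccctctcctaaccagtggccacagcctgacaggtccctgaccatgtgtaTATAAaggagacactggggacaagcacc
Alas2, chrX:150547297-150547416, plus strand: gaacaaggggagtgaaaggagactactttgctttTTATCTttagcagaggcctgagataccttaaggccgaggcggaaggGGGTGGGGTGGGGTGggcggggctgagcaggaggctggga

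All 7 promoters held CACCC within 120 bases of the start, against 31.7% of the 32851 promoters in the table. All 4 adult globin promoters held CCAAT and TATAA there, against 21.3% and 11.8% of all promoters. A GATA word lay in this window in Hba-x and Alas2, against 12.8% of all promoters. Over 250 bases the promoters of Hba-a1 and Hba-a2 had 97.6% identity and those of Hbb-bs and Hbb-bt 69.3%, so the alpha promoters are close copies and their motifs are not separate observations. These matches describe the letters only.

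Hbb-bs was the most abundant of the 8 genes in the libraries labelled cKO. It had 5161 counts in WT 2, 4544 in WT 3, 18904 in cKO 2 and 18767 in cKO 3, which scaled to 257, 224, 1052 and 1053 CPM. Both libraries labelled cKO lay above both labelled WT, and the pair labelled cKO differed by far less than the pair labelled WT. The log2 fold change was 2.13 ± 0.24 (SE), with an adjusted p of 0.0104 by edgeR's quasi-likelihood test with Benjamini-Hochberg adjustment over 16157 genes, and the ratio of mean CPM was 4.38.

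Hbb-bt, the second adult beta-globin, had 980 counts in WT 2, 650 in WT 3, 2276 in cKO 2 and 2253 in cKO 3 (48.9, 32.0, 127 and 126 CPM). It too was separated by label (log2 fold change 1.65 ± 0.24, edgeR adjusted p = 0.0127). With the counts of both beta genes summed before the test, which removes the uncertain split, the log2 fold change was 2.07 (edgeR adjusted p = 0.0117).

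Hba-a1 had 5305 counts in WT 2, 5100 in WT 3, 10650 in cKO 2 and 9434 in cKO 3 (265, 251, 593 and 529 CPM). Hba-a2 had 1992, 1838, 4037 and 3279 counts in the same order (99.4, 90.5, 225 and 184 CPM). Both alpha-globins were thus higher in the libraries labelled cKO without overlap, with log2 fold changes of 1.12 ± 0.22 (edgeR adjusted p = 0.0164) and 1.11 ± 0.21 (adjusted p = 0.0154). Their sum gave 1.12 (edgeR adjusted p = 0.0175).

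Alas2, an X-linked gene at chrX:150547375-150570638, was read far below the adult globins, at 212 counts in WT 2, 122 in WT 3, 355 in cKO 2 and 355 in cKO 3 (10.6, 6.01, 19.8 and 19.9 CPM). It was higher in the libraries labelled cKO (log2 fold change 1.26 ± 0.30, edgeR adjusted p = 0.0227). The libraries labelled WT, which differ in sex, differed in Alas2, while those labelled cKO, which also differ in sex, had near equal levels. Of the counts of Alas2 and the 6 globins together, Alas2 took 1.55%, 0.993%, 0.980% and 1.04%, so its share of this small group was highest in WT 2 and close in the other three libraries.

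Slc4a1, at chr11:102348824-102366203, had 41 counts in WT 2, 10 in WT 3, 20 in cKO 2 and 16 in cKO 3. The libraries labelled WT spanned those labelled cKO, and no difference was called (log2 fold change -0.33 ± 0.65, edgeR adjusted p = 0.718). Its direction rested on WT 2, without which the log2 fold change was 1.03 (edgeR adjusted p = 0.257).

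**Figure D1:**
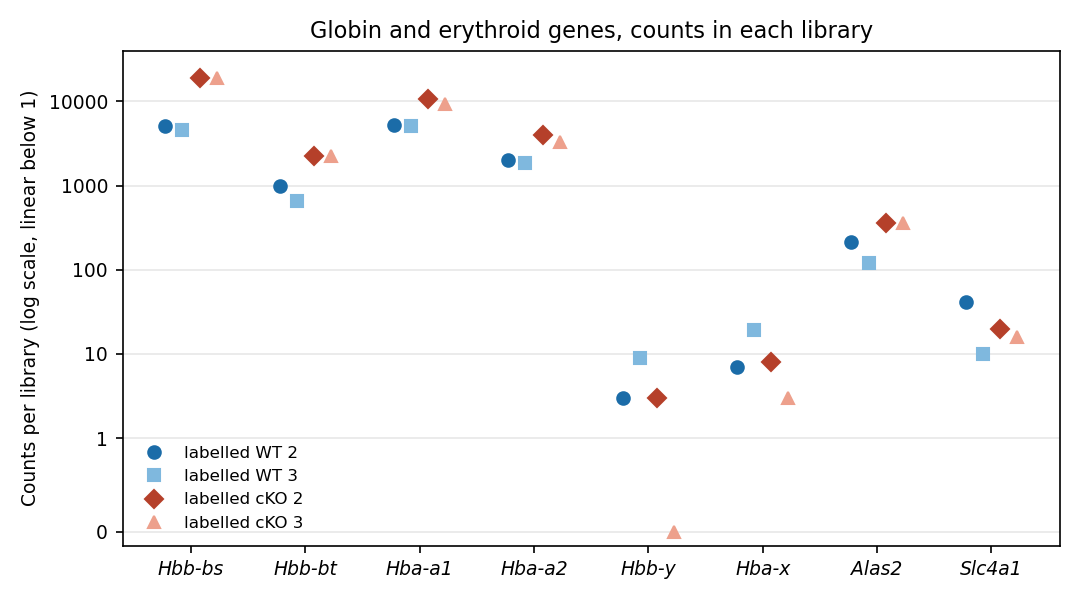
Counts of each gene in each library, on a log axis that is linear below 1; 1 point is 1 library, blue for labelled WT and red for labelled cKO. The 4 adult globins and Alas2 have both red points above both blue points, Slc4a1 does not, and Hbb-y and Hba-x stay at 19 counts or fewer.

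Of the 6 genes tested, 5 were called higher in the libraries labelled cKO and 0 lower, where 14.1% of all genes tested were called higher and 14.3% lower. The same 5 genes were those with both libraries labelled cKO above both labelled WT, a pattern held by 36.3% of all genes tested, the reverse being held by 36.2%. An exon length correction, a smooth fit of log2 CPM on exon length in each library, lowered the fold changes of all 5. The 4 adult globins, with 667 to 812 exon bases, fall in the shortest length group, in which 39.2% of genes were called higher, and Alas2 (2403 bases) in the next, whose median was 0.44. After the correction Hbb-bs (log2 fold change 1.61, edgeR adjusted p = 0.00458), Hbb-bt (1.09, adjusted p = 0.0211) and Alas2 (1.02, adjusted p = 0.0379) were still called, beside 17% of all genes called higher. Hba-a1 (0.63, edgeR adjusted p = 0.0528) and Hba-a2 (0.56, adjusted p = 0.0751) were not. The calls of Hba-a1, Hba-a2 and Alas2 were also lost without cKO 2 (adjusted p of 0.167, 0.177 and 0.0588) and without cKO 3 (0.107, 0.0724 and 0.0636), while those of Hbb-bs and Hbb-bt were kept without any 1 library. What part of the fold changes goes with length was not tested beyond this correction.

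**Figure D2:**
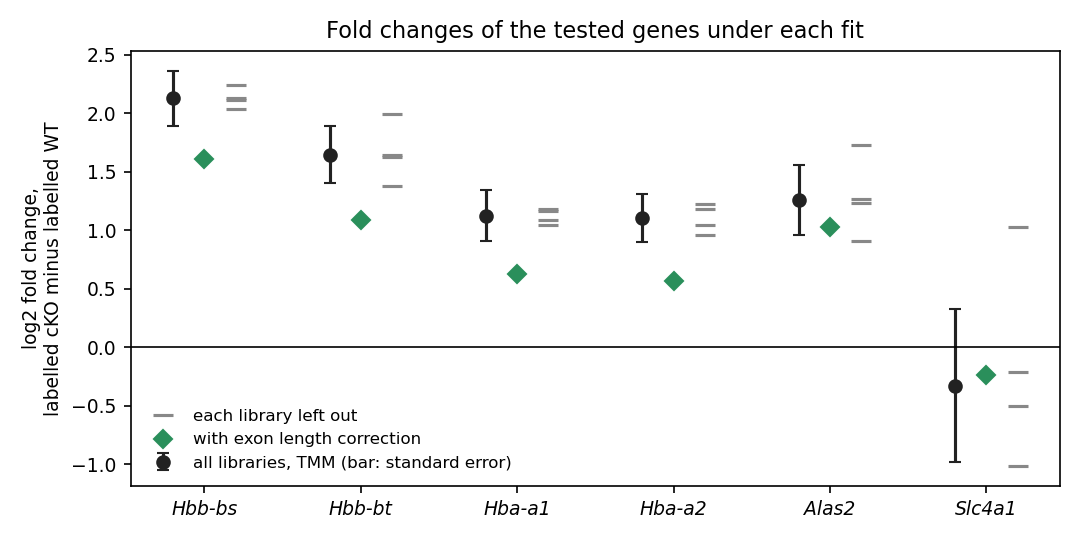
log2 fold change of each tested gene, labelled cKO minus labelled WT. Black points are the fit on all libraries with bars of 1 standard error, green diamonds the fit with the exon length correction, and grey dashes the fits that leave out 1 library each; Hbb-bs stays at 1.61 or above in each of these, and Slc4a1 falls on both sides of 0.

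Per kilobase of exon, Hba-a1 (318 CPM per kb) and Hbb-bs (313) had near equal mean levels in the libraries labelled WT. In those labelled cKO the mean level of Hbb-bs (1371 CPM per kb) was well above that of Hba-a1 (691). Hba-a2 (142 and 306 CPM per kb, WT then cKO), Hbb-bt (57.5 and 180) and Alas2 (3.45 and 8.26) followed in this order in both labels, and Slc4a1 was last of the tested genes (0.259 and 0.206). Ranked by level per kilobase among all genes, Hbb-bs stood at place 66 in WT 2, 121 in WT 3, 41 in cKO 2 and 37 in cKO 3, so an adult globin was among the more abundant mRNAs of every library.

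Summed over the 6 globins, the share of all counts was 0.0736% in WT 2 (95% Wilson interval 0.0724 to 0.0749), 0.0658% in WT 3 (0.0646 to 0.0669), 0.178% in cKO 2 (0.176 to 0.180) and 0.175% in cKO 3 (0.173 to 0.177). These intervals cover counting error only. The mean was 0.0697% ± 0.00555 (SD, n = 2) for the libraries labelled WT and 0.177% ± 0.00210 (SD, n = 2) for those labelled cKO, a ratio of 2.53. With 2 libraries against 2 an exact permutation test cannot go below p = 0.333, so the sums were not tested. In bulk RNA, more erythroid cells in a sample and more globin RNA per cell cannot be told apart.

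The balance of the chains differed as well. Alpha-like genes gave 54.3% of globin counts in WT 2 (95% Wilson interval 53.5 to 55.2), 57.2% in WT 3 (56.3 to 58.1), 41.0% in cKO 2 (40.5 to 41.5) and 37.7% in cKO 3 (37.2 to 38.2). The mean was 55.8% ± 2.05 (SD, n = 2) for the libraries labelled WT and 39.3% ± 2.31 (SD, n = 2) for those labelled cKO. The beta-like share of all counts was 3.47 times as high in the libraries labelled cKO as in those labelled WT, and the alpha-like share 1.79 times as high. On the TMM scale these ratios were 4.19 and 2.17. The alpha-like share of globin counts is a ratio within a library and does not move with scaling. Its level does depend on how many shared fragments of each pair were kept, which is not known.

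Within the adult beta pair, Hbb-bt gave 16.0% of counts in WT 2 (95% Wilson interval 15.1 to 16.9), 12.5% in WT 3 (11.6 to 13.4), 10.7% in cKO 2 (10.3 to 11.2) and 10.7% in cKO 3 (10.3 to 11.1). The libraries labelled WT differed from each other by more than WT 3 did from those labelled cKO. Within the adult alpha pair, Hba-a2 gave 27.3%, 26.5%, 27.5% and 25.8% in the same order, with no order by label. Both splits rest on how fragments of the near-identical copies were assigned.

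The embryonic globins were near the limit of detection. Hbb-y, at chr7:103851749-103853216, had 3 counts in WT 2, 9 in WT 3, 3 in cKO 2 and 0 in cKO 3. Hba-x, at chr11:32276400-32278116, had 7, 19, 8 and 3 counts in the same order. Both genes were highest in WT 3, their labels overlapped, and in a fit without the count filter neither was called (edgeR adjusted p of 0.498 for Hbb-y and 0.503 for Hba-x).

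As a share of the counts of the 6 globins, the embryonic pair made up 0.0744% in WT 2 (95% Wilson interval 0.0404 to 0.137), 0.230% in WT 3 (0.159 to 0.333), 0.0307% in cKO 2 (0.0171 to 0.0549) and 0.00889% in cKO 3 (0.00302 to 0.0261). The share was lower in both libraries labelled cKO, whose adult globin counts are higher, while the intervals of WT 2 and cKO 2 overlap. In cKO 3 there were 0 Hbb-y counts among 21020 beta-like counts, which allows a share of up to 0.0143%. Adult genes thus made up 99.8% of the counts of the 6 globins in WT 3, where their share was lowest. Of 7 other globin genes in the table, the embryonic Hbb-bh1 and the rows Hbb-bh2, Hbb-bh0 and Hba-ps3 were at 0 in all libraries, and Hbq1a (3, 0, 0 and 1 counts), Hbq1b (1, 3, 5 and 1) and Hba-ps4 (1, 3, 0 and 0) had few.

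**Figure D3:**
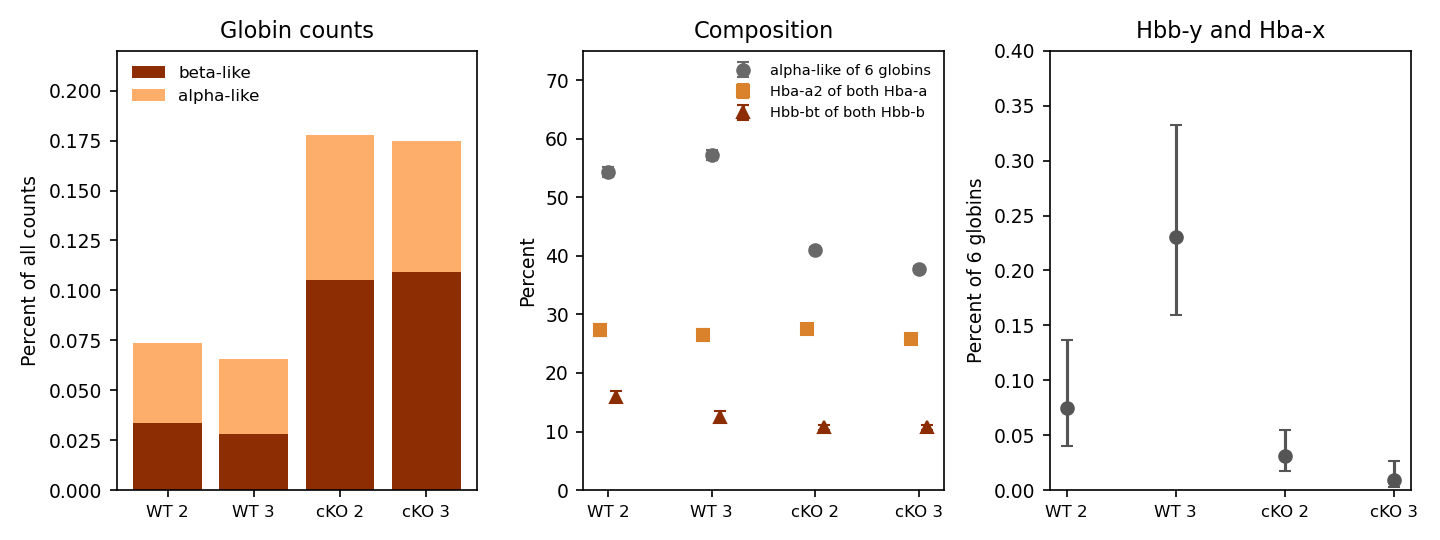
Left, alpha-like and beta-like globin counts as percent of all counts, stacked per library; middle, the alpha-like share of the 6 globins and the shares of Hba-a2 and Hbb-bt within their pairs; right, Hbb-y and Hba-x as percent of the 6 globins. Bars on the points are 95% Wilson intervals; the alpha-like share is 54.3% and 57.2% in the libraries labelled WT against 41.0% and 37.7% in those labelled cKO, and the embryonic share is highest in WT 3.

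Other genes of the red cell did not follow the adult globins as a group. Haem synthesis and iron uptake genes were the erythroid list with most calls: of 17 tested, Alas2 included, 7 were called higher and 3 lower, with a median log2 fold change of 0.67 beside -0.02 over all genes tested. Of all genes tested, 14.1% were called higher and 14.3% lower. With the exon length correction 7 of the list were called higher and 2 lower, beside 17% and 12.1% of all genes. Without cKO 2 none of this list was called higher, and without cKO 3 only 1 was. Slc25a38, the mitochondrial glycine carrier of haem synthesis, rose from 14.8 and 15.2 CPM in WT 2 and WT 3 to 34.0 and 32.0 in cKO 2 and cKO 3 (log2 fold change 1.14, edgeR adjusted p = 0.0149). Steap3, the ferrireductase of the transferrin cycle, rose from 11.8 and 15.5 to 33.0 and 28.3 CPM (1.17, adjusted p = 0.0171). Slc25a38 (2747 exon bases) falls in a length group with a median log2 fold change of 0.32, and Steap3 (5715) in one with -0.18. These genes serve haem and iron handling in many cells, and both calls were among those lost without cKO 2.

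Some iron uptake genes of the same list went the other way. Slc25a37 (mitoferrin 1), which brings iron into mitochondria of erythroid cells, fell from 28.7 and 20.8 CPM to 10.9 and 8.19 (log2 fold change -1.38, edgeR adjusted p = 0.0159). Tfrc, the transferrin receptor, was also lower (46.0, 24.5, 17.6 and 18.8 CPM, log2 fold change -0.95, edgeR adjusted p = 0.0486). Slc25a37 and Tfrc, with 6021 and 6185 exon bases, fall in a length group whose median log2 fold change was itself negative (-0.18). Without cKO 3 none of the list was called lower, and without cKO 2 only 1 was. Alas1, the form of the enzyme used outside the red cell lineage, was at 22.7, 24.7, 26.0 and 30.1 CPM, above Alas2 in every library, and was not called (0.24, edgeR adjusted p = 0.388).

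Of the 18 genes for the red cell membrane and its skeleton, 11 were tested, Slc4a1 included, with 1 called higher and 1 lower and a median log2 fold change of -0.33. Aqp1, a water channel of red cells that endothelium and other cells also make, rose from 196 and 210 CPM to 476 and 542 (log2 fold change 1.33, edgeR adjusted p = 0.0137). Sptb, erythroid beta-spectrin, fell from 3.84 and 3.40 CPM to 0.835 and 1.01 (-1.96, adjusted p = 0.0159). The call of Aqp1 was lost without cKO 3 (edgeR adjusted p = 0.0927) and that of Sptb without cKO 2 (0.0639). Some genes largely restricted to red cells were barely read: Rhag had 1, 0, 4 and 0 counts, Epb42 1, 0, 3 and 0, and Icam4 none. None of these 3 genes separated the labels. Rhd (52, 51, 25 and 22 counts) and Ermap (32, 18, 12 and 9) were lower in both libraries labelled cKO. That pattern was held by 36.2% of all genes tested. Neither was called (log2 fold change -0.96, edgeR adjusted p = 0.0859, and -1.07, adjusted p = 0.152). Before adjustment, 3 genes of the list had an edgeR p under 0.05 on the higher side and 3 on the lower.

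Among the 12 transcription factors and receptors of the erythroid lineage, 9 were tested, and edgeR called 0 higher and 2 lower, while DESeq2 called 0 higher. Before adjustment, 2 had p under 0.05 on the higher side and 3 on the lower. Klf1, the activator of adult beta-globin, had 26 counts in WT 2, 32 in WT 3, 44 in cKO 2 and 64 in cKO 3 (log2 fold change 1.07, edgeR adjusted p = 0.0694). The receptor of the list, Epor, was not called either and went the other way, with 20, 30, 9 and 5 counts (-1.65, edgeR adjusted p = 0.0557). Gata1 had 1, 1, 4 and 3 counts and Tal1 4, 2, 2 and 6. Both genes called lower, Sox6 (64.4, 30.3, 7.79 and 12.3 CPM, log2 fold change -2.24, edgeR adjusted p = 0.0143) and Bcl11a (39.9, 47.5, 16.6 and 20.8 CPM, -1.22, edgeR adjusted p = 0.0151), are known in red cells as repressors of embryonic globin genes. Sox6 is also a chondrocyte factor and Bcl11a a neural and lymphoid one. Bcl11a was not called without cKO 2 (edgeR adjusted p = 0.144) or with the exon length correction (-0.57, adjusted p = 0.117).

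Of 13 late erythroid and red cell enzymes, 9 were tested, with 1 called higher and 1 lower and a median of 0.11. Prdx2, an antioxidant enzyme abundant in red cells and made by most cells, was at 151, 249, 353 and 384 CPM (log2 fold change 0.88, edgeR adjusted p = 0.0446), with no call left without cKO 2 or without cKO 3. Trim10 had 15, 14, 4 and 2 counts (-2.06, edgeR adjusted p = 0.0461), a call lost without any 1 of the libraries. Car1, Hemgn and Trim58, which red cell precursors express strongly, were at 0 in all 4 libraries.

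**Figure D4:**
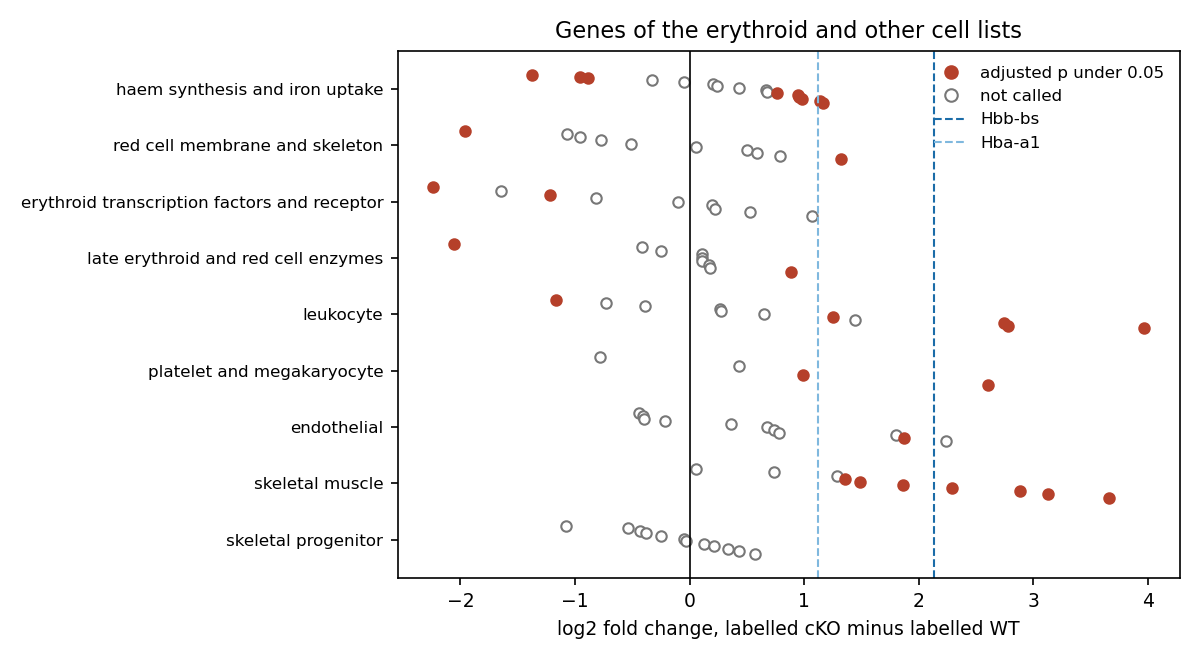
log2 fold change, labelled cKO minus labelled WT, of the tested genes of each list, 1 point a gene, filled where the edgeR adjusted p was under 0.05; the dashed lines are Hbb-bs (2.13) and Hba-a1 (1.12). The globin and erythroid genes described above are left out, and so is S100a9, whose libraries labelled WT were both at 0; no erythroid list gathers at the globin lines, and the skeletal muscle list lies furthest to the right.

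Markers of other cells that can accompany blood were read beside the globins. The gate genes were low or level: Ptprc (CD45) had 1, 3, 3 and 3 counts, while Tek (Tie2) was at 39.7, 33.7, 34.6 and 28.8 CPM. Of 17 leukocyte markers 12 were tested, and 5 were called higher and 1 lower (median log2 fold change 0.95), with a summed level of 19.9 CPM in WT 2, 23.3 in WT 3, 24.5 in cKO 2 and 27.9 in cKO 3. The genes called higher include those of neutrophils and macrophages: S100a9 had 0, 0, 22 and 38 counts, S100a8 0, 3, 17 and 28, and Lyz2, a lysozyme, 5, 15, 48 and 75. The 1 called lower was the macrophage marker Cd68, with 180, 232, 86 and 77 counts (log2 fold change -1.16, edgeR adjusted p = 0.0225). Csf1r, another macrophage marker, had 28, 18, 33 and 31 counts and was not called (edgeR adjusted p = 0.284). The T cell marker Cd3e was at 0 in all 4 libraries. S100a9, S100a8 and Tyrobp (1, 4, 15 and 16 counts) reached the count filter only through the libraries labelled cKO, where they are high. Lyz2 needed those libraries as well, since WT 2 held only 5 counts. These calls and the median are thus no support for a change of the list. With at least 10 counts required in every library 1 of 6 markers was called higher, and DESeq2 called 3. The count was 2 with no filter, 3 without WT 2 or without cKO 2 and 2 without cKO 3.

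Of 10 platelet and megakaryocyte markers 4 were tested and 2 called higher (median 0.71), with summed levels of 45.1 and 32.4 CPM against 79.3 and 63.8. Most of that level was Itgb3 (37.6, 24.9, 69.4 and 54.4 CPM). Pf4 reached the count filter only through the libraries labelled cKO, where it is high. Its call and the median are thus no support for a change of the list. With at least 10 counts required in every library 1 of 3 was called higher, DESeq2 called 1, and without the filter 0 were called. The platelet chemokine Pf4 had 3, 4, 16 and 23 counts, and Itgb3, an integrin that osteoclasts and other cells also carry, had a log2 fold change of 0.99. Neither was called without cKO 2 or without cKO 3. Endothelial markers summed to 70.1 and 63.7 CPM against 72.8 and 81.0, and without Tek to 30.4 and 29.9 against 38.2 and 52.2. Their median log2 fold change was 0.67, with 1 of 11 called higher: Egfl7, a secreted protein of endothelium, at 3.89, 5.27, 15.6 and 17.8 CPM (1.87, edgeR adjusted p = 0.0127). The count called higher was 3 with the exon length correction and without cKO 2, and 2 without WT 3.

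Skeletal muscle markers moved with the globins in the same libraries, with 7 of 10 tested called higher and none lower (median 1.67), beside 14.1% of all genes tested called higher. Their summed level was 41.7 CPM in WT 2, 56.8 in WT 3, 201 in cKO 2 and 199 in cKO 3, and the muscle actin Acta1, the muscle creatine kinase Ckm and the myosin light chain Mylpf had log2 fold changes of 3.13, 3.66 and 2.88. Acta1 and Mylpf, with 1536 and 1062 exon bases, fall in the shortest length group, in which 39.2% of genes were called higher (median 0.73). With the exon length correction 7 muscle markers were again called higher. Skeletal progenitor markers summed to 66360 and 68536 CPM against 79702 and 68831. Most of this sum came from Col1a1, Col1a2 and Col3a1, with means of 30714, 15198 and 14374 CPM in the libraries labelled WT. Of the 12 markers 0 were called by edgeR, 2 were lower at an unadjusted p under 0.05 and 1 was lower by DESeq2. Calls appeared in other fits: 2 higher and 1 lower with the exon length correction, 4 lower without WT 2, and 4 higher and 3 lower without WT 3. Prrx1, the gene whose regulatory sequence drives the Cre, was at 265, 264, 213 and 194 CPM. The part of other cells, and of length, in the globin levels was not tested.

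**Figure D5:**
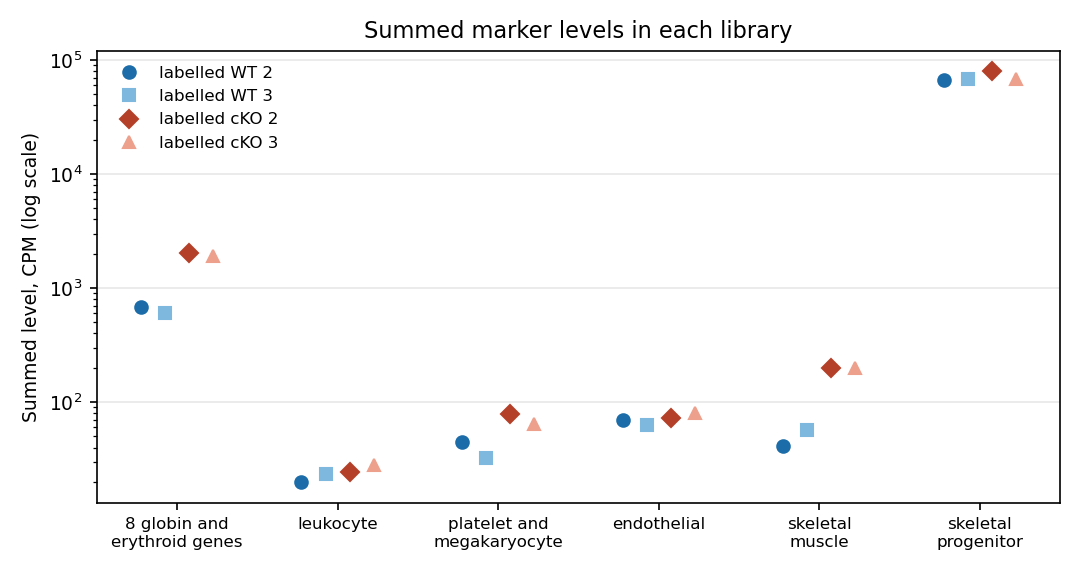
Summed level of the 8 globin and erythroid genes and of each marker list in each library, in TMM-scaled CPM on a log axis, 1 point a library. The globin and erythroid sum and the skeletal muscle sum (41.7 and 56.8 against 201 and 199 CPM) separate the labels most. The skeletal progenitor sum, most of it from collagen genes, separates them the least by ratio.

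The genes whose pattern over the 4 libraries was nearest to that of Hbb-bs were sought by Euclidean distance of centred log2 CPM among 12967 genes. Smim1, at a distance of 0.186, came first with 12.6, 12.5, 54.7 and 50.6 CPM; in human its protein carries the Vel blood group of red cells. Plac8 (0.365), the cardiac and fetal muscle actin Actc1 (0.376), the ectonucleotidase Entpd2 (0.379) and Dipk1c (0.384) followed. Of the globin and erythroid genes themselves Hbb-bt was nearest, at 0.545 with 25 genes closer, then Alas2 at 0.957 with 385 closer, Hba-a1 at 1.02 with 527 closer, Hba-a2 at 1.06 with 624 closer and Slc4a1 at 2.36 with 9559 closer. With 4 libraries, 2 per label, many genes come close to any such pattern, and the distance is a description only.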

How the data were processed

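The 4 libraries of polyadenylated RNA from sorted P1 hindlimb cells were grouped by the WT or cKO of their titles. The deposited table holds raw counts per gene that the authors made, without normalization. The study's methods describe STAR on mm10 with GENCODE annotation and featureCounts, with fragments of high mapping quality. In contrast, HTSeq 0.11.3, STAR 2.6.1b, the build GRCh38.p12 and DESeq2 1.28.1 are listed in the submitters' processing notes. Which of these made the table was not stated. A mapping quality filter, if used, would discard fragments shared by near-identical globin copies.

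Counts were tested with the quasi-likelihood test of edgeR 4.0.16 under R 4.3.3 (TMM, filterByExpr at 10 counts, label as the only term, Benjamini-Hochberg over 16157 genes, called at an adjusted p under 0.05), after a run on simulated data. Exon lengths came from GENCODE vM21, which covers 99.38% of identifiers. The length correction used a lowess span of 0.3 and a pseudocount of 0.5. Promoters came from RefSeq, and copies were aligned from GENCODE transcripts. Sums are shares of raw library totals, with 95% Wilson intervals, and the limit for 0 uses 3 counts.

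The genes and lists were chosen with earlier results of these data known. The rule for named genes took all 8 genes and from each list up to 3 called genes with the smallest p, or the 2 highest. Genes named beyond that rule (Alas1, Tfrc, Klf1, Epor, Gata1, Tal1 and other defining markers) were chosen after their values were seen. Some list members are not reported here. Alternatives were other scalings, filters, DESeq2 1.42.0 with and without ashr 2.2.63, the length correction, the replicate number as a block and leaving out each library.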

Additional observations from a re-analysis of the deposited data

How the results depend on the processing

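Of all genes tested, 2275 were called higher and 2314 lower. Without a filter on low counts these were 869 and 665, and with library totals in place of TMM 1094 and 3859, which moved the median of all genes by -0.28. Leaving out 1 library gave 506 to 4459 higher and 518 to 4254 lower. Of the 5 globin and erythroid genes called higher, 3 were called with the exon length correction and 2 to 5 when 1 library was left out. Hbb-bs and Hbb-bt were called in all 14 alternatives, with log2 fold changes of 1.61 to 2.24 and 1.09 to 1.99. Hba-a1 and Hba-a2 were each called in 11 of 14, without a call under the length correction, without cKO 2 and without cKO 3. Alas2 was called in 11 of 14, without a call when no filter was used (edgeR adjusted p = 0.0576), without cKO 2 and without cKO 3. Slc4a1 was called in none, and ranged from -1.02 to 1.03 (the latter without WT 2) when 1 library was left out. The globin sum was 697 and 1765 CPM (WT, cKO) by library totals, 635 and 1945 by TMM, and 636 and 1941 by DESeq2 size factors. The embryonic share in the libraries labelled cKO was 0.0390% among alpha-like counts alone. Of the skeletal progenitor genes, with 0 calls in the reported fit, 4 were called lower with library totals, 1 lower by DESeq2 and 1 lower with the replicate block. Of these genes, Col1a1 turned to 0.20 with the length correction and ranged from -0.12 to 0.0058 when 1 library was left out, and Col1a2 turned to -0.063 with library totals but was called higher with the length correction (0.84, edgeR adjusted p = 0.0371). Library totals and the summed copies were chosen after the data were seen.

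The replicate numbers 2 and 3 recur in both labels, but same-numbered libraries did not deviate together over genes (correlation -0.0894). This sets 1 difference per label against the other, and same-numbered libraries differ in sex. It cannot decide whether the numbers stand for a shared litter or batch. With the replicate block 2615 genes were called higher and 2753 lower, and the same 5 globin and erythroid genes. With 1 library left out, the lone library of a label is assumed to vary like those of the other. Depth limits Hbb-y, Hba-x and Gata1, which were read at 0 to 19 counts and fell below the filter.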
